A study of Mus musculus with 18 samples.

Results

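The interferon-stimulated and RNA-sensing genes are a list of 38 mouse genes chosen by name. Of these, 35 were found among the 46725 genes of the files by symbol, and the expression of Irf9, Gbp7 and Rtp4 was not analysed here. By role they are 8 sensors of foreign or unusual RNA and their adaptor, 4 transcription factors, 3 members of the IFIT family, 4 of the OAS family, 3 genes of the ISG15 pathway, 3 of the Parp9 and Dtx3l group, 3 guanylate-binding proteins and 10 other antiviral effectors.

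The samples were the gastrocnemius and quadriceps muscles of FVB mice aged 20 weeks, in 3 groups of 3, with RNA sequencing of 18 libraries. WT mice carried no transgene and HSA-LR mice carried a human skeletal actin transgene whose RNA holds an expanded CUG repeat, and treated mice were HSA-LR mice given Pip6a-PMO, a cell-penetrating peptide joined to a morpholino oligomer of CAG repeats, by intravenous injection (160 µL per mouse). The labels call the WT and HSA-LR mice untreated, while the protocol names saline as the control injection. The actin promoter limits the transgene to skeletal muscle. The dose given to the sequenced mice was not given in the sources used here, and no library came from a WT mouse given Pip6a-PMO, so an effect of the oligomer itself cannot be told apart from an effect on the repeat RNA.

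Type I interferons are secreted when a cell detects foreign nucleic acid, and they bind a receptor that signals through the kinases Jak1 and Tyk2 to a complex that holds Stat2 and Irf9. This complex enters the nucleus, binds the interferon-stimulated response element and raises the antiviral genes as a group. Long paired RNA, a form that CUG repeats can take, is the ligand of several sensors in the list, among them Ifih1 (MDA5), Tlr3 and Eif2ak2 (PKR). The comparisons ask whether the repeat RNA, or the oligomer given against it, went with such a response.

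Library totals ran from 98916844 to 143135976 counts of read pairs on exon bins, and the 10 most abundant genes took 25.5% to 34.7% of a library. Markers of fast muscle fibers (7 genes) summed to 113501 to 234620 CPM (counts scaled to the library size) in the 18 libraries and did not tell the 2 muscles apart. The library of the gastrocnemius of treated mouse 3 stood apart, with 24.1% of the counts of well covered genes in the bins nearest the 5' end (27.8% to 29.6% in the other 17). WT mouse 2, labelled female, had 154 and 181 CPM of 4 Y-linked genes in its 2 libraries and WT mouse 3, labelled male, had 1.15 and 1.43 CPM, against 119 to 187 CPM in the other libraries, so the labelled sex of these mice goes against their RNA. Calls of members that change without either mouse are given with and without it.

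The response element can be read in the promoters of many members. A promoter of 300 bases (250 before to 50 after the start of transcription; RefSeq, GRCm38) was at hand for 28 of the 38 genes, and 2 copies of GAAA with 2 bases of any kind between them (on the other strand, 2 copies of TTTC) stood in 14 of them (50%), against 3.99% of all 27025 genes with a promoter. This motif is the core of the interferon-stimulated response element, and a gene was counted once however many matches, overlapping or not, its promoter held. Gbp7, with a match, and Irf9, without a match, are among the 28 genes although their expression was not analysed. The windows below are 30 bases of the coding strand (the strand that reads as the RNA does), 5' to 3', with the matched letters in capitals. They show members of several roles, and they include Ifih1 and Ifit1, the 2 genes among those called below that held a match.
Ifih1 (chr2:62646206-62646235, minus strand, match begins 32 bases after the start): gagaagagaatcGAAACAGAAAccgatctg
Eif2ak2 (chr17:78882535-78882564, minus strand, 18 bases after the start): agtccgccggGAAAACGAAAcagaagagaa
Isg15 (chr4:156200871-156200900, minus strand, 78 bases before the start): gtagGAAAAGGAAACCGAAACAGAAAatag
Oas1a (chr5:120907523-120907552, minus strand, 20 bases before the start): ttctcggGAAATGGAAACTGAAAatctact
Ifit1 (chr19:34640785-34640814, plus strand, 104 bases before the start): TTTCACTTTCcagtctcagTTTCAGTTTCt
Gbp2 (chr3:142620594-142620623, plus strand, 59 bases before the start): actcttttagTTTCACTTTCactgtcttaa
No match stood in this window for Dtx3l, Ifi35, Trim25 or Mavs. Usp18 and Parp9 are named only. A match is a run of letters and does not show that a factor was bound.

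Most of the list was expressed at a low level in these muscles. Mean CPM over the 18 libraries was 44.1 for Mavs and 16.7 for Ifi35, and it was under 10 for each of the other 33 genes. Per kilobase of exon, Mavs (13.2 CPM per kb), Ifi35 (9.69) and Bst2 (4.95) were the highest, followed by Gbp2 (2.28) and Irf1 (2.22). Isg15, among the genes that a strong response raises most, stood in the middle of the list at 0.374 CPM per kb. The lowest were Oas3 (0.00490), Mx1 (0.0192), Ifi44 (0.0284), Zbp1 (0.0538) and Ifit1 (0.0955). Oas3, with 0 to 18 counts per library, did not pass the filter on low counts, so 34 members were tested in each muscle. Genes with near-identical copies (the IFIT, OAS and guanylate-binding families, Mx1 and Mx2) can share reads, and their single values are uncertain to that extent.

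The interferon genes themselves had few counts or none. Of 21 found in the files, 15 had 0 counts in all 18 libraries, among them Ifnb1, Ifna4, Ifne, Ifnk, Ifnl2 and Ifnl3. A count of 0 over all 18 libraries allows up to 3 counts, or 0.00136 CPM with the libraries of all groups pooled. The limit for a single group is higher and was not computed. Ifna2, Ifna6, Ifna13, Ifnab and Ifnz had 1 or 2 counts in all. Ifng, the type II interferon, had 0 to 6 counts per library and was at 0 in 12 of the 18. The interferon-induced chemokine Cxcl10 ran from 0.0287 to 0.214 CPM. Counting intervals and limits of this kind cover counting error only.

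In HSA-LR mice the list did not move as a group. At an adjusted P under 0.1 (edgeR's quasi-likelihood test, Benjamini-Hochberg adjusted over all genes tested, the test meant by a call where no other is named), 4 of 34 members were called against WT in the gastrocnemius, 3 higher and 1 lower, beside 15.5% of all 15625 genes tested (8.6% higher, 6.94% lower). In the quadriceps 5 of 34 were called, 3 higher and 2 lower, beside 20.3% of 15574 genes (11.0% higher, 9.31% lower). Both shares, 11.8% and 14.7%, were below the background, which was not so in every alternative. The members' share was above that of all genes in the gastrocnemius without treated mouse 3 (23.5% and 22.1%) and in the quadriceps without HSA-LR mouse 2 (14.7% and 13.5%), and in both muscles with genes of at least 1 count in any library (8.57% and 8.25%, 14.3% and 10.7%). The median log2 fold change (FC) over the 34 members was -0.024 in the gastrocnemius and -0.049 in the quadriceps, and over all genes it was -0.010 and 0.005. In each muscle 15 members were above and 19 below the WT level by the fitted value.

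The members called higher in both muscles were the RNA sensor Ifih1, the ubiquitin ligase Dtx3l and the effector Ifi35. Usp18 and Trim25 were called lower in the quadriceps and Ifit1 was called lower in the gastrocnemius. The gastrocnemius count of 4 fell to 1 without HSA-LR mouse 1 or WT mouse 2 (8.6% and 9.34% of all genes then) and to 2 without HSA-LR mouse 2 or 3 (8.52% and 8.83%), and it was 8 without treated mouse 3 (22.1%). Ifih1 was called in the gastrocnemius in all of these.

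**Figure D1:**
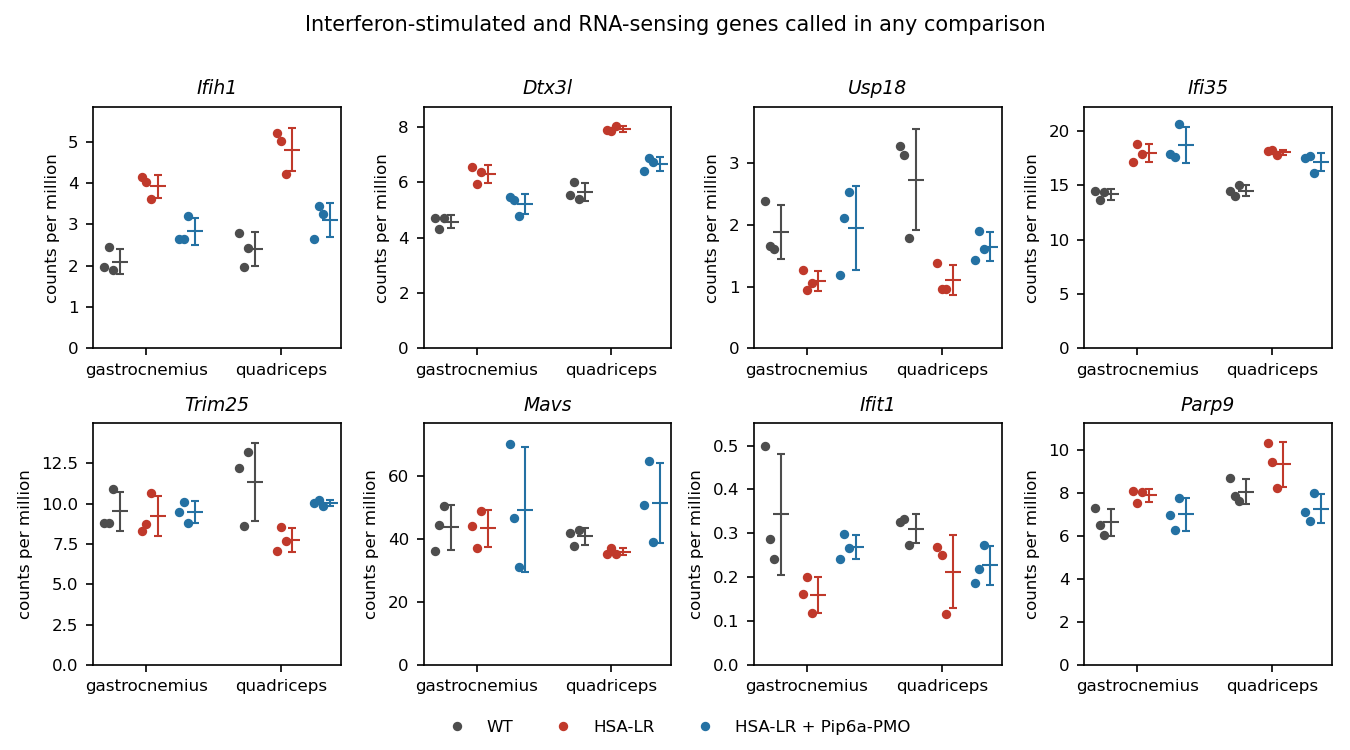
Level of the 8 genes called in any comparison, in CPM on an axis that starts at 0, for the gastrocnemius (left) and the quadriceps (right) of each panel. Points are mice (gray WT, red HSA-LR, blue HSA-LR given Pip6a-PMO) and the bars beside them are the mean ± SD of 3 mice. The red points of Ifih1, Dtx3l and Ifi35 lie above all gray points in both muscles, and those of Usp18 lie below all gray points.

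Among the sensors, Ifih1, which binds long double-stranded RNA in the cytoplasm and signals through Mavs, had the largest rise. The gene lies on chromosome 2 (62595798 to 62646255, minus strand). In the gastrocnemius, Ifih1 was at 1.96, 2.45 and 1.90 CPM in the WT mice, 4.13, 4.03 and 3.61 CPM in the HSA-LR mice and 2.64, 2.66 and 3.21 CPM in the treated mice. In the quadriceps it was at 2.79, 1.97 and 2.43 CPM in the WT mice, 5.20, 5.01 and 4.21 CPM in the HSA-LR mice and 2.65, 3.43 and 3.25 CPM in the treated mice. All HSA-LR libraries were above all WT libraries in both muscles, and the treated libraries lay between them or, in the quadriceps, overlapped the WT range. The level was 1.85-fold that of WT in the gastrocnemius (log2 FC 0.89 ± 0.15 (SE), adjusted P = 0.00646) and 2.01-fold in the quadriceps (log2 FC 1.01 ± 0.17 (SE), adjusted P = 0.00580). The call was kept in all 18 alternatives run in the gastrocnemius and in 17 of 18 in the quadriceps, where it was lost with the largest bin of the gene in place of its sum (adjusted P = 0.114).

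The other double-stranded RNA sensor of the same family in the list, Dhx58 (LGP2), which regulates Ifih1, showed no such separation. Its gastrocnemius levels were 0.631, 0.660 and 0.748 CPM in the WT mice, 0.685, 0.606 and 0.439 CPM in the HSA-LR mice and 0.560, 0.443 and 0.823 CPM in the treated mice, and its quadriceps levels were 1.12, 0.790 and 1.05 CPM in the WT mice, 1.10, 1.54 and 0.552 CPM in the HSA-LR mice and 0.697, 0.740 and 0.614 CPM in the treated mice. The HSA-LR and WT ranges overlapped in both muscles (log2 FC -0.25 ± 0.27 (SE), adjusted P = 0.626 and log2 FC 0.11 ± 0.33 (SE), adjusted P = 0.871).

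Tlr3, the endosomal receptor of double-stranded RNA, was higher in all HSA-LR than in all WT libraries of both muscles but was not called. In the gastrocnemius, Tlr3 was at 1.17, 1.51 and 1.35 CPM in the WT mice, 2.15, 1.59 and 1.93 CPM in the HSA-LR mice and 1.70, 1.36 and 1.11 CPM in the treated mice (log2 FC 0.48 ± 0.20 (SE), adjusted P = 0.172 for HSA-LR against WT). In the quadriceps, Tlr3 was at 1.71, 1.56 and 1.68 CPM in the WT mice, 2.56, 2.42 and 1.72 CPM in the HSA-LR mice and 1.78, 2.04 and 0.954 CPM in the treated mice (log2 FC 0.44 ± 0.27 (SE), adjusted P = 0.337). HSA-LR mouse 3 was just above the WT range in the quadriceps. In the gastrocnemius Tlr3 was called with the largest bin of the gene (adjusted P = 0.0271) and without treated mouse 3.

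Tlr7, the endosomal receptor of single-stranded RNA, is best known from immune cells and was low. In tissue samples, fewer cells of a type and less RNA per cell cannot be told apart, and the macrophage markers given below were also higher in the HSA-LR quadriceps. The gastrocnemius levels of Tlr7 were 0.623, 0.280 and 0.519 CPM in the WT mice, 0.231, 0.499 and 0.422 CPM in the HSA-LR mice and 0.462, 0.451 and 0.422 CPM in the treated mice, with overlapping groups. In the quadriceps, Tlr7 was at 0.325, 0.360 and 0.240 CPM in the WT mice, 0.455, 0.416 and 0.803 CPM in the HSA-LR mice and 0.357, 0.581 and 0.207 CPM in the treated mice, and the HSA-LR mice were above the WT mice (log2 FC 0.86 ± 0.41 (SE), adjusted P = 0.208).

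Zbp1, a sensor of Z-form nucleic acid that can trigger cell death, had 6 to 51 counts per library. In the gastrocnemius, Zbp1 was at 0.279, 0.165 and 0.325 CPM in the WT mice, 0.0616, 0.0844 and 0.118 CPM in the HSA-LR mice and 0.114, 0.0483 and 0.350 CPM in the treated mice, lower in all HSA-LR than in all WT mice (log2 FC -1.55 ± 0.63 (SE), adjusted P = 0.162). In the quadriceps, Zbp1 was at 0.255, 0.132 and 0.214 CPM in the WT mice, 0.343, 0.365 and 0.159 CPM in the HSA-LR mice and 0.0715, 0.0589 and 0.274 CPM in the treated mice, with overlapping groups (log2 FC 0.53 ± 0.57 (SE), adjusted P = 0.612). It was not called in either muscle, but in the gastrocnemius it was with 2 groups in the fit (adjusted P = 0.0441) and without treated mouse 2 (0.0958) or 3 (0.0507).

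Eif2ak2 encodes PKR, the kinase that halts translation when it binds double-stranded RNA. In the gastrocnemius, Eif2ak2 was at 4.60, 4.97 and 4.86 CPM in the WT mice, 4.90, 5.26 and 6.41 CPM in the HSA-LR mice and 4.35, 4.99 and 3.54 CPM in the treated mice. In the quadriceps, Eif2ak2 was at 5.86, 6.30 and 6.88 CPM in the WT mice, 7.13, 7.19 and 6.31 CPM in the HSA-LR mice and 6.11, 7.68 and 5.93 CPM in the treated mice. The HSA-LR mice were within or just above the WT range and the gene was not called (log2 FC 0.19 ± 0.15 (SE), adjusted P = 0.491 and log2 FC 0.12 ± 0.13 (SE), adjusted P = 0.621).

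Adar edits adenosines in double-stranded RNA and keeps self RNA from being sensed. In the gastrocnemius, Adar was at 4.29, 4.40 and 4.33 CPM in the WT mice, 5.20, 5.13 and 5.09 CPM in the HSA-LR mice and 5.11, 4.15 and 4.56 CPM in the treated mice, higher in all HSA-LR than in all WT mice but not called (log2 FC 0.23 ± 0.11 (SE), adjusted P = 0.211) except with 2 groups in the fit (adjusted P = 0.0989). In the quadriceps, Adar was at 4.14, 3.84 and 5.37 CPM in the WT mice, 4.58, 5.03 and 3.14 CPM in the HSA-LR mice and 3.76, 4.58 and 3.63 CPM in the treated mice, with no order of the groups (log2 FC -0.063 ± 0.20 (SE), adjusted P = 0.885).

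Mavs, the mitochondrial adaptor through which Ifih1 signals, did not follow Ifih1. Its gastrocnemius levels were 36.2, 44.3 and 50.5 CPM in the WT mice, 44.0, 37.2 and 49.0 CPM in the HSA-LR mice and 70.3, 46.6 and 31.1 CPM in the treated mice, and its quadriceps levels were 41.8, 37.9 and 42.9 CPM in the WT mice, 35.3, 37.2 and 35.3 CPM in the HSA-LR mice and 50.7, 64.6 and 38.9 CPM in the treated mice. In the gastrocnemius the treated mice spread wider than both other groups together, and in the quadriceps all HSA-LR mice were below all WT mice. Against WT, the HSA-LR mice differed by log2 FC -0.019 ± 0.26 (SE), adjusted P = 0.974 in the gastrocnemius and by log2 FC -0.18 ± 0.16 (SE), adjusted P = 0.507 in the quadriceps.

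**Figure D2:**
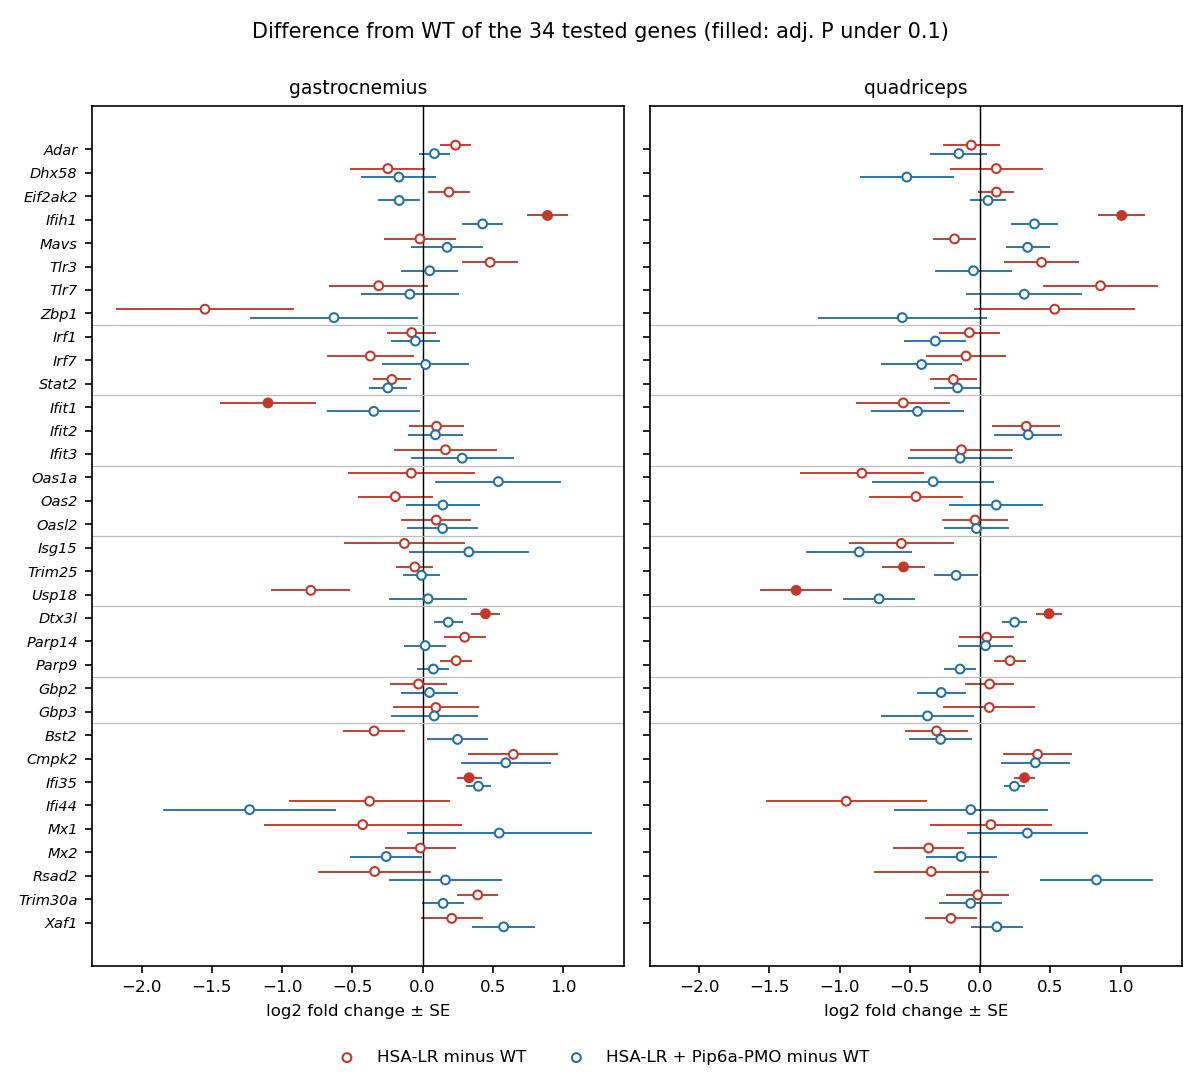
Difference from WT of the 34 tested genes, as log2 FC ± SE, for HSA-LR mice (red) and HSA-LR mice given Pip6a-PMO (blue) in each muscle. Filled points had an adjusted P under 0.1, gray lines part the roles (from the top: RNA sensors, transcription factors, IFIT, OAS, ISG15 pathway, Parp9 and Dtx3l group, guanylate-binding proteins, other effectors), and the points fall on both sides of 0 in both muscles.

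Of the 3 transcription factors tested, 0 were called in either muscle by edgeR or DESeq2, and 0 had an unadjusted P under 0.05. Irf1, which interferon gamma induces, had the highest level per kilobase among them. In the gastrocnemius, Irf1 was at 8.26, 7.35 and 10.5 CPM in the WT mice, 6.60, 8.92 and 9.36 CPM in the HSA-LR mice and 7.79, 7.68 and 9.76 CPM in the treated mice, and in the quadriceps it was at 8.90, 7.44 and 13.7 CPM in the WT mice, 8.94, 11.5 and 8.07 CPM in the HSA-LR mice and 8.22, 7.75 and 8.04 CPM in the treated mice. The groups overlapped (log2 FC -0.078 ± 0.18 (SE), adjusted P = 0.832 and log2 FC -0.077 ± 0.22 (SE), adjusted P = 0.871). Irf7, the factor that amplifies interferon production, and Stat2, the subunit of the response complex, were below WT by the fitted value in both muscles (Irf7 -0.37 ± 0.31 and -0.10 ± 0.28, Stat2 -0.22 ± 0.14 and -0.19 ± 0.17 on the log2 scale) and were not called.

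The IFIT genes, whose proteins bind foreign RNA ends and block its translation, are among the first to rise in an interferon response. Ifit1 instead was lower in HSA-LR gastrocnemius. Its gastrocnemius levels were 0.50, 0.287 and 0.242 CPM in the WT mice, 0.162, 0.199 and 0.118 CPM in the HSA-LR mice and 0.242, 0.298 and 0.268 CPM in the treated mice (14 to 61 counts per library over all 18), and its quadriceps levels were 0.325, 0.333 and 0.274 CPM in the WT mice, 0.269, 0.251 and 0.117 CPM in the HSA-LR mice and 0.188, 0.219 and 0.274 CPM in the treated mice. All HSA-LR mice were below all WT mice in both muscles, and the gene was called in the gastrocnemius (log2 FC -1.10 ± 0.34 (SE), adjusted P = 0.0765) and not in the quadriceps (log2 FC -0.55 ± 0.33 (SE), adjusted P = 0.331). The gastrocnemius call depended on single mice. Without WT mouse 1 the log2 FC was -0.73 with an adjusted P of 0.237. The call was also lost without WT mouse 2 (adjusted P = 0.119) or HSA-LR mouse 1 (0.186), 2 (0.117) or 3 (0.219), and in 8 of the 18 alternatives run in all.

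Ifit2 had the highest level per kilobase of this family. In the gastrocnemius, Ifit2 was at 1.22, 1.22 and 1.41 CPM in the WT mice, 1.15, 1.31 and 1.69 CPM in the HSA-LR mice and 1.65, 1.21 and 1.25 CPM in the treated mice, and in the quadriceps it was at 0.888, 1.06 and 1.11 CPM in the WT mice, 1.22, 1.16 and 1.46 CPM in the HSA-LR mice and 1.59, 1.41 and 0.855 CPM in the treated mice. The HSA-LR mice overlapped WT in the gastrocnemius and were above WT in the quadriceps, without a call (log2 FC 0.10 ± 0.20 (SE), adjusted P = 0.808 and log2 FC 0.33 ± 0.24 (SE), adjusted P = 0.427). Ifit3 was not called (0.16 ± 0.36 and -0.13 ± 0.37 on the log2 scale).

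Of the OAS family, whose enzymes make the messenger that activates RNase L, 3 of 4 genes could be tested and 0 were called in either muscle by edgeR or by DESeq2, and 0 had an unadjusted P under 0.05. Oas2 had the highest level per kilobase. In the gastrocnemius, Oas2 was at 0.853, 0.861 and 1.51 CPM in the WT mice, 0.954, 1.15 and 0.735 CPM in the HSA-LR mice and 1.33, 1.05 and 1.19 CPM in the treated mice. In the quadriceps, Oas2 was at 1.20, 0.948 and 1.47 CPM in the WT mice, 0.650, 1.26 and 0.711 CPM in the HSA-LR mice and 1.63, 1.46 and 0.822 CPM in the treated mice, with overlapping groups (log2 FC -0.46 ± 0.34 (SE), adjusted P = 0.431 for HSA-LR against WT). Oas1a and Oasl2 differed by -0.081 ± 0.45 and 0.10 ± 0.25 in the gastrocnemius and by -0.84 ± 0.44 and -0.035 ± 0.23 in the quadriceps on the log2 scale.

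The ISG15 pathway tags proteins with the ubiquitin-like Isg15, and its members fell or did not pass the test. Usp18, the protease that removes Isg15 and restrains the type I interferon receptor, fell in the quadriceps. In the gastrocnemius, Usp18 was at 2.39, 1.66 and 1.61 CPM in the WT mice, 1.28, 0.951 and 1.06 CPM in the HSA-LR mice and 1.20, 2.12 and 2.53 CPM in the treated mice. In the quadriceps, Usp18 was at 3.28, 3.14 and 1.79 CPM in the WT mice, 1.38, 0.967 and 0.962 CPM in the HSA-LR mice and 1.44, 1.90 and 1.62 CPM in the treated mice. All HSA-LR mice were below all WT mice in both muscles. The HSA-LR level was 0.403 of WT in the quadriceps (log2 FC -1.31 ± 0.26 (SE), adjusted P = 0.0119), a call kept in all 18 alternatives run, and the gastrocnemius difference was not called by edgeR (log2 FC -0.80 ± 0.28 (SE), adjusted P = 0.112). It was called there by DESeq2 (adjusted P = 0.0497), with 2 groups in the fit (0.0546) and without treated mouse 1 (0.0486) or 3 (0.0796). Usp18 (chromosome 6, plus strand) overlaps the gene Gm44148 on the opposite strand, and whether the counting used strand was not given in the sources used here, although the protocol was stranded.

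Trim25, a ligase of ubiquitin and Isg15 that takes part in RNA sensing through RIG-I, was called in the quadriceps and not in the gastrocnemius. In the gastrocnemius, Trim25 was at 8.80, 8.80 and 10.9 CPM in the WT mice, 8.27, 8.74 and 10.6 CPM in the HSA-LR mice and 9.50, 10.1 and 8.81 CPM in the treated mice. In the quadriceps, Trim25 was at 12.2, 8.61 and 13.2 CPM in the WT mice, 7.08, 8.54 and 7.66 CPM in the HSA-LR mice and 10.04, 10.2 and 9.84 CPM in the treated mice. The groups overlapped in the gastrocnemius (log2 FC -0.056 ± 0.13 (SE), adjusted P = 0.838) and did not in the quadriceps (log2 FC -0.55 ± 0.16 (SE), adjusted P = 0.0486). The quadriceps call was lost without HSA-LR mouse 1 (adjusted P = 0.139), HSA-LR mouse 3 (0.105), WT mouse 1 (0.125) or WT mouse 3 (0.144). Isg15 itself, with 19 to 55 counts per library, had overlapping groups (-0.13 ± 0.43 and -0.56 ± 0.37 on the log2 scale) and was not called.

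Dtx3l and Parp9 form a complex that modifies histones and takes part in antiviral defense, and the genes sit head to head on chromosome 16 and overlap by 682 bases on opposite strands in the annotation. In the gastrocnemius, Dtx3l was at 4.71, 4.31 and 4.72 CPM in the WT mice, 6.57, 5.93 and 6.38 CPM in the HSA-LR mice and 5.47, 5.36 and 4.79 CPM in the treated mice. In the quadriceps, Dtx3l was at 5.56, 6.01 and 5.39 CPM in the WT mice, 7.89, 7.85 and 8.04 CPM in the HSA-LR mice and 6.40, 6.87 and 6.73 CPM in the treated mice. All HSA-LR mice were above all WT mice in both muscles, and the treated mice lay between. The level in HSA-LR mice was 1.36-fold that of WT in the gastrocnemius (log2 FC 0.45 ± 0.10 (SE), adjusted P = 0.0256) and 1.40-fold in the quadriceps (log2 FC 0.49 ± 0.090 (SE), adjusted P = 0.00898). The gastrocnemius call was lost without HSA-LR mouse 1 (adjusted P = 0.109) or WT mouse 2 (0.102), and the quadriceps call held in all 18 alternatives run.

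Parp9 had smaller differences. Its gastrocnemius levels were 7.30, 6.53 and 6.07 CPM in the WT mice, 8.08, 7.53 and 8.06 CPM in the HSA-LR mice and 6.99, 6.27 and 7.78 CPM in the treated mice, and its quadriceps levels were 8.70, 7.87 and 7.63 CPM in the WT mice, 10.3, 9.46 and 8.25 CPM in the HSA-LR mice and 7.12, 6.69 and 8.0 CPM in the treated mice. The HSA-LR mice were above the WT mice in the gastrocnemius (log2 FC 0.24 ± 0.11 (SE), adjusted P = 0.232) and overlapped them in the quadriceps (log2 FC 0.21 ± 0.12 (SE), adjusted P = 0.268), without a call. Parp14, a related enzyme, was not called either (0.30 ± 0.15 and 0.047 ± 0.19 on the log2 scale).

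The guanylate-binding proteins attack the vacuoles of intracellular pathogens and are strongly induced by interferon gamma. In the gastrocnemius, Gbp2 was at 4.91, 5.42 and 6.12 CPM in the WT mice, 5.36, 4.96 and 5.94 CPM in the HSA-LR mice and 5.01, 4.30 and 7.77 CPM in the treated mice, and in the quadriceps it was at 7.22, 4.85 and 6.54 CPM in the WT mice, 6.80, 7.45 and 5.22 CPM in the HSA-LR mice and 4.91, 5.24 and 5.13 CPM in the treated mice. Gbp2 and Gbp3 had overlapping groups in both muscles, with log2 FC in HSA-LR mice between -0.029 (Gbp2, gastrocnemius) and 0.094 (Gbp3, gastrocnemius).

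Of the 9 other antiviral effectors tested, Ifi35 was called in each muscle. Ifi35 is an interferon-induced protein that binds Nmi. In the gastrocnemius, Ifi35 was at 14.5, 13.6 and 14.3 CPM in the WT mice, 17.2, 18.8 and 17.9 CPM in the HSA-LR mice and 17.9, 17.6 and 20.6 CPM in the treated mice. In the quadriceps, Ifi35 was at 14.5, 14.0 and 15 CPM in the WT mice, 18.1, 18.2 and 17.8 CPM in the HSA-LR mice and 17.5, 17.7 and 16.2 CPM in the treated mice. HSA-LR and treated mice were both above all WT mice in both muscles. The HSA-LR level was 1.26-fold that of WT in the gastrocnemius (log2 FC 0.33 ± 0.089 (SE), adjusted P = 0.0448) and 1.24-fold in the quadriceps (log2 FC 0.32 ± 0.074 (SE), adjusted P = 0.0230). The gastrocnemius call was lost without WT mouse 2 or any 1 of the HSA-LR mice (adjusted P 0.103 to 0.172), and the quadriceps call held in all 18 alternatives run.

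The remaining 8 effectors were Bst2, Cmpk2, Ifi44, Mx1, Mx2, Rsad2, Trim30a and Xaf1. In the gastrocnemius their log2 FC in HSA-LR mice ran from -0.43 ± 0.70 (Mx1) to 0.65 ± 0.32 (Cmpk2), and in the quadriceps from -0.95 ± 0.57 (Ifi44) to 0.41 ± 0.25 (Cmpk2). Trim30a, a regulator of innate signalling, was above WT in all HSA-LR gastrocnemius libraries (log2 FC 0.39 ± 0.15 (SE), adjusted P = 0.129). Bst2, which tethers budding virus to the cell surface, was fitted below WT in both muscles (-0.34 ± 0.22 and -0.31 ± 0.23). Of the 8, edgeR called 0 in either muscle, with 1 (Trim30a) and 0 at an unadjusted P under 0.05, and DESeq2 called Trim30a in the gastrocnemius.

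Counted without the test, all HSA-LR libraries were above all WT libraries for 8 members in the gastrocnemius and 7 in the quadriceps, and below for 4 and 5. Over all genes tested the shares above were 19.8% and 17.1% and the shares below 16.5% and 16.1%.

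Few members of the list were called in mice given Pip6a-PMO. Against untreated HSA-LR mice, 0 of 34 members were called in the gastrocnemius by edgeR beside 10% of all genes (4.49% higher, 5.53% lower), with 5 at an unadjusted P under 0.05. DESeq2 called 3 (beside 14.9% of all genes) and limma voom 1 (beside 10%). Without treated mouse 1 the edgeR count was 2 (Usp18 and Bst2, higher), and without treated mouse 3 or WT mouse 3 it was 1 (Ifih1, lower). The share of all genes then was 8.58%, 9.15% and 11.8%. In the quadriceps 3 of 34 were called beside 13.8% of all genes (6.54% higher, 7.22% lower), namely Ifih1 and Parp9 lower and Mavs higher. The median log2 FC of the 34 members was 0.057 in the gastrocnemius and -0.013 in the quadriceps, and over all genes it was -0.004 and -0.010. By the fitted value 20 members were above and 14 below the HSA-LR level in the gastrocnemius, and 15 and 19 in the quadriceps. This comparison and that of HSA-LR against WT share the HSA-LR libraries and are not independent. The quadriceps count of 3 fell to 0 without HSA-LR mouse 1, HSA-LR mouse 2, treated mouse 1 or treated mouse 2. The share of all genes fell as well then, to 4.36%, 5.52%, 5.32% and 6.46%. The count was 5 without HSA-LR mouse 3 (Ifih1, Parp9, Dhx58, Rsad2 and Xaf1, beside 17.5% of all genes). Without treated mouse 3 it was 2, Mavs and Zbp1 (8.99% of all genes). It stayed 3 without WT mouse 2 (13.5%) or WT mouse 3 (14.7%), with Trim25 or Usp18 in place of Parp9.

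Ifih1 was lower in all treated than in all untreated HSA-LR mice of both muscles, at 0.650 of the HSA-LR level in the quadriceps (log2 FC -0.62 ± 0.17 (SE), adjusted P = 0.0581) and 0.726 in the gastrocnemius (log2 FC -0.46 ± 0.15 (SE), adjusted P = 0.104). The quadriceps call was kept in 11 of the 18 alternatives run. Among others, it was lost without HSA-LR mouse 1 (adjusted P = 0.175), HSA-LR mouse 2 (0.162) or treated mouse 1 (0.174), 2 (0.102) or 3 (0.105) and with the largest bin of the gene in place of its sum (0.155). The gastrocnemius difference was not called by edgeR and was called by DESeq2 (adjusted P = 0.041) and limma voom (0.0851), and by edgeR when genes needed 10 counts in each library (0.095) and without treated mouse 3 (0.0724) or WT mouse 3 (0.0965).

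Mavs was called higher in treated than in untreated HSA-LR quadriceps (log2 FC 0.52 ± 0.16 (SE), adjusted P = 0.0791), and the treated mice spread from 38.9 to 64.6 CPM. Without treated mouse 2 the log2 FC was 0.33 with an adjusted P of 0.188, and without HSA-LR mouse 1, 2 or 3 or treated mouse 1 the adjusted P was 0.119 to 0.203. Parp9 was called lower (log2 FC -0.36 ± 0.12 (SE), adjusted P = 0.0964) and lost the call in 14 of the 18 alternatives run, with adjusted P up to 0.426, among them without WT mouse 2 (0.116) or WT mouse 3 (0.108). Dtx3l was lower in all treated than in all untreated mice in both muscles without a call (log2 FC -0.26 ± 0.10 (SE), adjusted P = 0.172 and log2 FC -0.25 ± 0.090 (SE), adjusted P = 0.130). Ifi35 stayed near its HSA-LR level (0.066 ± 0.088 and -0.072 ± 0.074 on the log2 scale). Usp18 was higher by the fitted value in both muscles (log2 FC 0.83 ± 0.28 (SE), adjusted P = 0.123 and log2 FC 0.59 ± 0.26 (SE), adjusted P = 0.184) and Trim25 in the quadriceps (log2 FC 0.37 ± 0.16 (SE), adjusted P = 0.167), and edgeR with all 9 libraries did not call these differences. In the quadriceps, it called Trim25 without WT mouse 2 (adjusted P = 0.0662) or with 2 groups in the fit (0.079), and Usp18 without WT mouse 3 (0.0966). DESeq2 called Usp18 and Bst2 higher in the gastrocnemius, and in the quadriceps it called Rsad2 higher and Dtx3l lower besides the 3 genes that edgeR called.

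The classic effectors Isg15, Ifit1, Oas1a and Mx1 were not called on treatment by edgeR or DESeq2. Isg15 differed from untreated HSA-LR mice by 0.46 ± 0.43 and -0.30 ± 0.38, Ifit1 by 0.75 ± 0.35 and 0.10 ± 0.34, Oas1a by 0.62 ± 0.45 and 0.51 ± 0.44, and Mx1 by 0.97 ± 0.69 and 0.26 ± 0.42 on the log2 scale, in the gastrocnemius and the quadriceps. The adjusted P were 0.568 and 0.649 for Isg15, 0.244 and 0.875 for Ifit1, 0.456 and 0.496 for Oas1a and 0.442 and 0.731 for Mx1. Rsad2 (viperin), an enzyme that makes an antiviral nucleotide, was higher in all treated than in all HSA-LR quadriceps libraries (log2 FC 1.18 ± 0.41 (SE), adjusted P = 0.113). It was not called by edgeR, while DESeq2 called it (adjusted P = 0.0463), as did edgeR with the largest bin of the gene (0.0654) and without HSA-LR mouse 3 (0.0816).

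Against WT mice, the treated mice had 0 of 34 members called by edgeR in the gastrocnemius, beside 1.04% of all genes (0.595% higher, 0.448% lower), and 0 in the quadriceps, beside 1.41% (1.1% higher, 0.302% lower). At an unadjusted P under 0.05 there were 3 and 5, and DESeq2 called 1 in each muscle, Ifi35 (beside 3.39% and 4.8% of all genes). By the fitted value 24 members were above and 10 below WT in the gastrocnemius, and 13 and 21 in the quadriceps. The median log2 FC was 0.084 and -0.10, beside -0.001 and 0.003 over all genes. For Ifi35 the treated level was 1.32-fold that of WT in the gastrocnemius (log2 FC 0.40 ± 0.089 (SE), adjusted P = 0.111) and 1.18-fold in the quadriceps (log2 FC 0.24 ± 0.074 (SE), adjusted P = 0.227), with all treated above all WT mice. Ifih1 in treated mice was 1.34-fold WT in the gastrocnemius and 1.31-fold in the quadriceps (log2 FC 0.43 ± 0.15 (SE), adjusted P = 0.339 and log2 FC 0.39 ± 0.17 (SE), adjusted P = 0.391), and Dtx3l 1.13-fold and 1.18-fold (log2 FC 0.18 ± 0.10 (SE), adjusted P = 0.589 and log2 FC 0.24 ± 0.090 (SE), adjusted P = 0.316). Usp18 in the treated quadriceps was at 0.607 of WT (log2 FC -0.72 ± 0.25 (SE), adjusted P = 0.293), with overlapping groups. Without the test, all treated libraries were above all WT libraries for 5 members in the gastrocnemius and 3 in the quadriceps (7.1% and 8.89% of all genes) and below for 0 and 3 (7.16% and 9.41%). Against untreated HSA-LR mice the counts were 1 and 4 above (13.2% and 15.4% of all genes) and 3 and 4 below (16.1% and 16.5%). The tests do not show that the treated mice were at the WT level.

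The muscles were compared within 1 fit of the 18 libraries. For HSA-LR against WT, the difference between the muscles was called for 0 of 34 members and for 0 of 16167 genes (0.0%) by edgeR, with 2 members and 710 genes at an unadjusted P under 0.05. DESeq2 and a fit with the mouse as a block called 0 members as well. For treated against untreated HSA-LR mice edgeR again called 0 members and 0 genes (0.0%), with 1 member and 1271 genes at an unadjusted P under 0.05, and DESeq2 and the block called 0 members. The log2 FC of HSA-LR against WT in the quadriceps minus that in the gastrocnemius was 0.10 (95% interval -0.32 to 0.53) for Ifih1, 0.029 (95% interval -0.20 to 0.26) for Dtx3l, -0.53 (95% interval -1.31 to 0.25) for Usp18 and -0.50 (95% interval -0.91 to -0.10) for Trim25. The 2 members at an unadjusted P under 0.05 were Trim25 and Zbp1 (2.07 (95% interval 0.29 to 3.84)). These intervals are 1.96 SE to each side, a normal multiplier, and are narrower than the test itself would give.

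The deposited unit is the exon bin, so the change in a gene could be followed along its length. Ifih1 had 24 bins, of which 19 held enough counts (at least 45 over the 9 libraries of a muscle in each muscle). All 19 had a higher mean in HSA-LR than in WT mice in both muscles, and in 14 of them in the gastrocnemius and 18 in the quadriceps no HSA-LR library overlapped a WT library. The median ratio of HSA-LR to WT over the bins was 1.85 and 2.07. Usp18 was lower in HSA-LR mice in 14 of 14 bins in both muscles, with no overlap in 6 and 12, and Trim25 was lower in 9 of 9 bins in the quadriceps and in 4 of 9 in the gastrocnemius. Dtx3l was higher in 5 of 5 bins in both muscles, and Ifi35 in 13 of 14. Parp9, which was not called in HSA-LR against WT mice, was higher in 19 of 19 bins in both muscles. The bins add up to the gene totals already tested, and a read pair can count in several bins. Agreement of the bins is thus no separate evidence for a call, and its share over all genes was not computed.

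**Figure D3:**
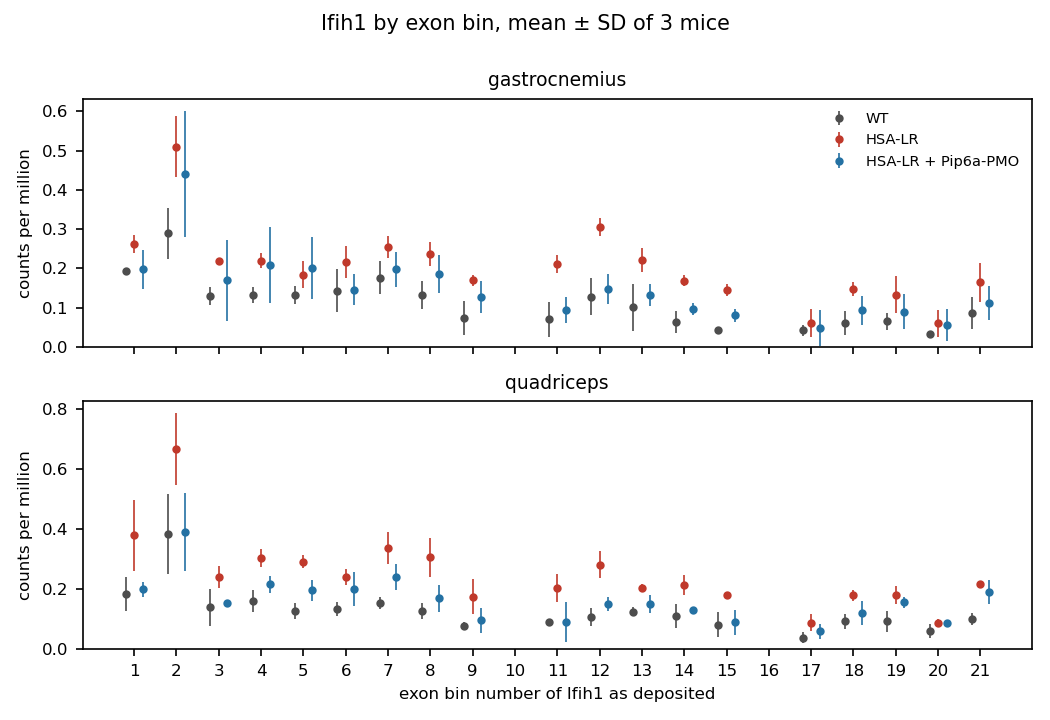
Ifih1 by exon bin, in CPM, mean ± SD of 3 mice, with the bins numbered as deposited. The HSA-LR points (red) are above the WT points (gray) in all 19 bins of both muscles.

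A change of 1 bin relative to the rest of its gene, which a change in splicing gives, was not called for any member. In the gastrocnemius 258 bins of 23 members were tested and in the quadriceps 267 bins of 23. With diffSpliceDGE of edgeR, 0 were called in each of the 6 contrasts, with 0 to 3 bins per contrast at an unadjusted P under 0.05 and 0 called by limma's diffSplice. Over all bins the share called was 0.819%, 0.309% and 0.0654% in the gastrocnemius for HSA-LR against WT, treated against HSA-LR and treated against WT, and 0.284%, 0.168% and 0.0353% in the quadriceps.

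Libraries of 1 group also differed among themselves. The median over the 34 members of the log2 ratio to the WT mean of the muscle ran from -0.10 to 0.14 in WT gastrocnemius, from -0.044 to 0.13 in HSA-LR gastrocnemius and from -0.057 to 0.26 in treated gastrocnemius. In the quadriceps the ranges were -0.25 to 0.11, -0.26 to 0.16 and -0.18 to 0.14. The highest of these, 0.26, belonged to the gastrocnemius of treated mouse 3, which had the highest level of the 9 libraries for 14 of 34 members, among them Isg15 (0.566 CPM), Oas1a (0.782), Bst2 (7.66), Irf7 (4.17) and Gbp2 (7.77). The quadriceps of the same mouse did not show this, with a median of -0.18. The library also had the low share of 5' counts given above, and its part in this result was not tested. Without this mouse, 8 members were called for HSA-LR against WT in the gastrocnemius in place of 4, the same 4 with Zbp1, Usp18, Trim30a and Tlr3, 5 of them higher.

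**Figure D4:**
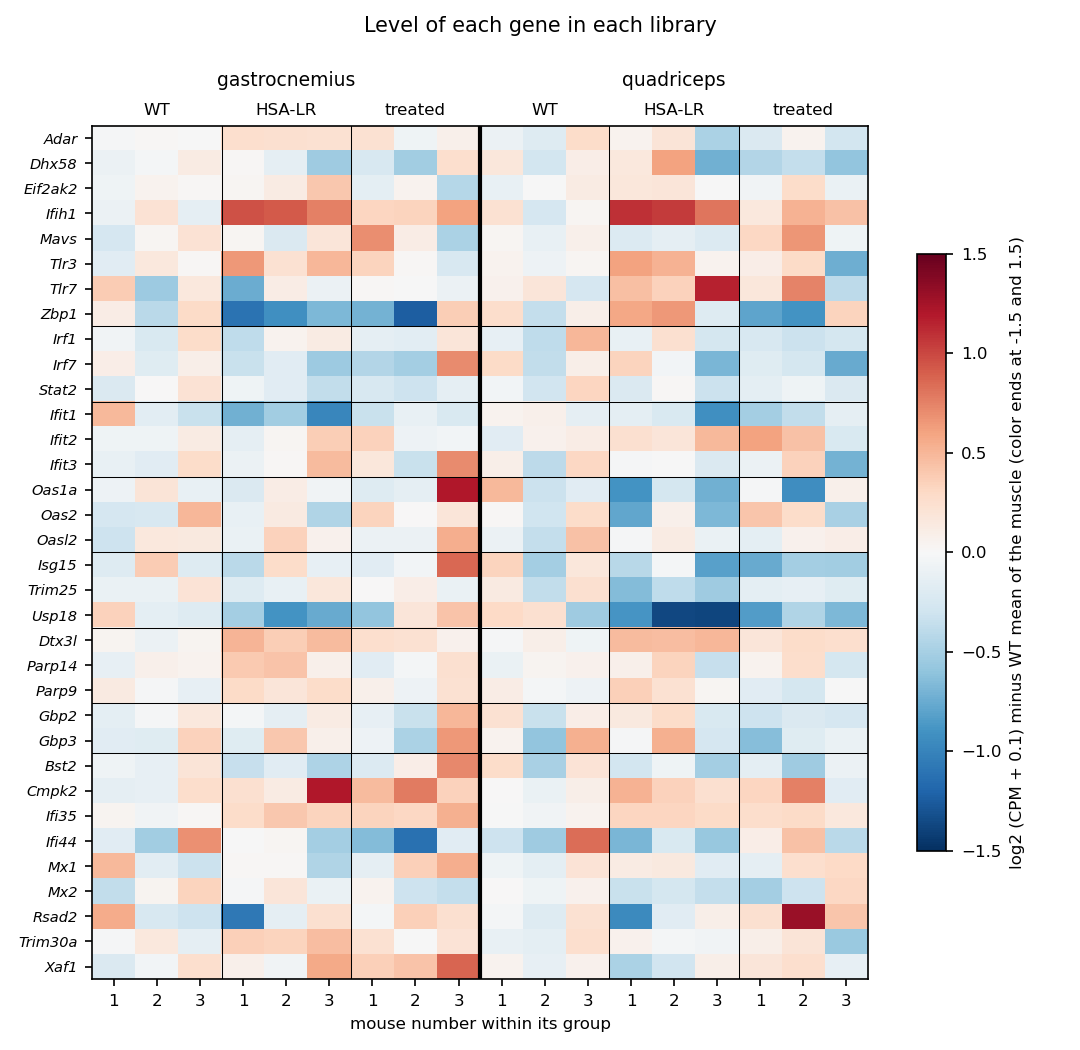
Level of the 34 tested genes in the 18 libraries, as log2 (CPM + 0.1) minus the mean of the WT mice of the muscle, red above and blue below, with color ends at -1.5 and 1.5. Columns are mice by group and muscle and rows follow the roles of the plot of differences from WT. Ifih1 and Dtx3l are red in all HSA-LR columns, Usp18 is blue in them, and treated gastrocnemius mouse 3 is red in many rows.

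Markers of macrophages differed between the groups in the quadriceps. The summed level of 13 macrophage markers was 58.5 to 83.5 CPM in WT, 107 to 140 CPM in HSA-LR and 55.0 to 81.1 CPM in treated quadriceps, with 8 of 13 (61.5%) called higher in HSA-LR against WT, beside 11.0% of all genes, and 9 of 13 (69.2%) called lower in treated against HSA-LR mice, beside 7.22%. In the gastrocnemius the sums were 74.2 to 103, 88.2 to 104 and 61.0 to 97.2 CPM, with 2 of 13 (15.4%) called higher, beside 8.6% of all genes, and 4 (30.8%) called lower, beside 5.53%. The files held 13 of the 14 macrophage markers listed, and all 13 were above 0.

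Lymphocyte and neutrophil markers were low. Markers of T and NK cells summed to at most 1.21 CPM (8 genes), of B cells to at most 0.648 CPM (4 genes) and of neutrophils to at most 4.07 CPM (5 genes), and dendritic cell markers (5 genes) to 5.86 to 9.44 CPM. Of the 4 dendritic cell markers tested, 3 (75%) were called in HSA-LR against WT quadriceps, beside 20.3% of all genes. Itgax and Siglech were higher and Zbtb46 was lower. On treatment Siglech was called lower there, 1 of 4 (25%) beside 7.22% of all genes. The dendritic cell sum was lower in all HSA-LR (5.86 to 7.31 CPM) than in all WT quadriceps libraries (7.68 to 9.44 CPM). In treated quadriceps it was 6.46 to 7.61 CPM. Endothelial markers (6 genes), a cell type that holds interferon-stimulated genes at rest, summed to 246 to 314 CPM in WT and 166 to 208 CPM in HSA-LR quadriceps, with 4 of 6 called lower there, beside 9.31% of all genes, and 0 of 6 in the gastrocnemius (215 to 309 and 239 to 270 CPM). Smooth muscle and pericyte markers (5 genes) were at 207 to 286 and 167 to 198 CPM in WT and HSA-LR quadriceps, and fibroblast markers (3 genes) at 292 to 374 and 454 to 486 CPM. Fiber markers moved as well. The fast fiber sums were lower in all HSA-LR than in all WT and all treated mice of both muscles. Of the 7 fast fiber markers, 3 were called lower in HSA-LR against WT quadriceps and 0 in the gastrocnemius (2 at an unadjusted P under 0.05), and on treatment 3 were called higher in the quadriceps and 4 in the gastrocnemius (beside 6.54% and 4.49% of all genes). Slow fiber markers (5 genes) summed to 77.6 to 368 CPM in WT, 15.7 to 65.4 CPM in HSA-LR and 31.9 to 1283 CPM in treated quadriceps, with 4 of 5 called higher on treatment (median log2 FC 4.17), and to 1277 to 9958 CPM in the gastrocnemius. Adipocyte and erythroid markers varied widely within groups. The part of any of these cells or fibers in the results for Usp18, Trim25, Ifih1 or the other members was not tested.

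Of 121 other genes of the interferon pathway, 102 were found in the files and 90 were tested in the gastrocnemius and 92 in the quadriceps. For HSA-LR against WT, 8 of 90 (8.89%) were called in the gastrocnemius, 6 higher and 2 lower, and 9 of 92 (9.78%) in the quadriceps, 6 higher and 3 lower, with a median log2 FC of -0.058 and 0.040. For treated against HSA-LR mice, 4 of 90 were called, all lower, and 10 of 92, 3 higher and 7 lower (medians 0.049 and -0.15). Against WT the treated mice had 1 of 90 and 0 of 92 called, the latter with 11 at an unadjusted P under 0.05 and 3 called by DESeq2. Of both directions together, these shares were below those of all genes given above except the 1.11% of treated against WT gastrocnemius.

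By role, the 54 and 55 other interferon-stimulated genes tested had 2 higher and 1 lower (5.56%) in the HSA-LR gastrocnemius and 1 higher and 3 lower (7.27%) in the quadriceps, beside 15.5% and 20.3% of all genes. On treatment they had 1 lower (1.85%), and 2 higher and 1 lower (5.45%), beside 10% and 13.8%.

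The other sensors, adaptors and kinases had larger shares. In HSA-LR mice 3 of 22 were higher and 1 lower in the gastrocnemius (18.2%, above the 15.5% of all genes) and 3 of 23 were higher in the quadriceps (13.0%, below the 20.3%). On treatment 3 of 22 were lower (13.6%, beside 5.53% of all genes lower) and 5 of 23 were lower (21.7%, beside 7.22%), and 0 were higher. The 10 receptors and signalling genes had 1 and 2 higher in HSA-LR mice (10% and 20%, beside 8.6% and 11.0% of all genes higher). On treatment they had 0 and 1 lower (0% and 10%, beside 5.53% and 7.22% of all genes lower). The highest fitted log2 FC among the 10 on treatment was 2.95 in the gastrocnemius and 2.74 in the quadriceps, each without a call. In treated against WT mice the highest was 2.86 and 3.55, also without a call. The 4 chemokines and ligands with enough counts (Cxcl9, Cxcl10, Cxcl11 and Ccl5) had 0 called in HSA-LR mice. On treatment 1 of 4 (25%) was called higher, in the quadriceps, beside 6.54% of all genes higher. Its log2 FC there was 1.70 (edgeR, adjusted P = 0.0953), and the other 3 were fitted lower. Against WT, treated mice had 0 of the 4 called in either muscle.

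Among the 8 pathway genes named for the smallest P of a call, the largest change was that of Irf5, a transcription factor downstream of Toll-like receptors. In the gastrocnemius, Irf5 was at 5.56, 4.48 and 9.38 CPM in the WT mice, 26.7, 26.2 and 22.1 CPM in the HSA-LR mice and 6.70, 4.38 and 4.83 CPM in the treated mice. In the quadriceps, Irf5 was at 5.34, 4.12 and 6.01 CPM in the WT mice, 22.9, 26.7 and 34.1 CPM in the HSA-LR mice and 9.13, 13.2 and 5.79 CPM in the treated mice. The HSA-LR mice did not overlap the other groups. Irf5 rose in HSA-LR against WT (log2 FC 1.94 ± 0.27 (SE), adjusted P = 0.00259 and log2 FC 2.44 ± 0.30 (SE), adjusted P = 0.00139) and was lower in treated than in HSA-LR mice (log2 FC -2.23 ± 0.27 (SE), adjusted P = 0.00346 and log2 FC -1.57 ± 0.29 (SE), adjusted P = 0.0177).

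Traf3, an adaptor on the path from Mavs to the interferon genes, rose in HSA-LR mice (log2 FC 0.72 ± 0.16 (SE), adjusted P = 0.0221 and log2 FC 0.79 ± 0.11 (SE), adjusted P = 0.00248) and was lower in treated mice (log2 FC -0.90 ± 0.16 (SE), adjusted P = 0.0176 and log2 FC -0.47 ± 0.11 (SE), adjusted P = 0.0391). Jak2, a kinase of the interferon gamma receptor, was higher in HSA-LR than in WT mice (log2 FC 0.88 ± 0.17 (SE), adjusted P = 0.0122 and log2 FC 0.74 ± 0.16 (SE), adjusted P = 0.0188) and stayed so on treatment, with 50.4 ± 6.66 CPM (SD, n = 3) in WT, 93.4 ± 18.9 CPM in HSA-LR and 87.3 ± 13.5 CPM in treated gastrocnemius. Its treated against WT difference was called in the gastrocnemius (log2 FC 0.79 ± 0.17 (SE), adjusted P = 0.0987) and not in the quadriceps (log2 FC 0.70 ± 0.16 (SE), adjusted P = 0.124), and the gastrocnemius call was lost in 11 of the 18 alternatives run, among them without any 1 WT mouse, HSA-LR mouse 1 or 2 or treated mouse 1 or 2 (adjusted P 0.146 to 0.258). Psme1, a proteasome activator subunit that interferon gamma induces, and Znfx1, a helicase that senses RNA at mitochondria, were lower in the HSA-LR quadriceps (log2 FC -0.54 ± 0.10 (SE), adjusted P = 0.00915 and log2 FC -0.37 ± 0.081 (SE), adjusted P = 0.0185) and higher in treated than in HSA-LR quadriceps (log2 FC 0.40 ± 0.10 (SE), adjusted P = 0.0491 and log2 FC 0.54 ± 0.082 (SE), adjusted P = 0.00834).

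Ptpn6, a phosphatase of blood cells that damps cytokine receptors, was higher in the HSA-LR quadriceps, as the macrophage markers were (log2 FC 0.67 ± 0.15 (SE), adjusted P = 0.0195), and lower in treated than in HSA-LR quadriceps (log2 FC -0.72 ± 0.15 (SE), adjusted P = 0.0269). In the gastrocnemius it was not called (log2 FC -0.13 ± 0.30 (SE), adjusted P = 0.836 for HSA-LR against WT and log2 FC -0.25 ± 0.30 (SE), adjusted P = 0.670 on treatment). Irf2, a factor that competes with Irf1 for its binding sites, was lower in treated than in HSA-LR mice in both muscles (log2 FC -0.58 ± 0.14 (SE), adjusted P = 0.0471 and log2 FC -0.50 ± 0.14 (SE), adjusted P = 0.0605). Tlr9, an endosomal DNA receptor at under 0.1 CPM in each group mean of the quadriceps, was lower in treated than in HSA-LR quadriceps (log2 FC -2.02 ± 0.47 (SE), adjusted P = 0.0391), a call lost without HSA-LR mouse 1 (adjusted P = 0.104) or treated mouse 1 (0.110), 2 (0.105) or 3 (0.103). That of Irf2 was lost without HSA-LR mouse 1 or 2 in both muscles (adjusted P 0.107 to 0.172), and in the quadriceps also without HSA-LR mouse 3 (0.103) or treated mouse 1 (0.176) or 2 (0.166). Those of Ptpn6, Traf3 and Psme1 in treated quadriceps were lost without HSA-LR mouse 1 (0.104, 0.108 and 0.143), that of Traf3 also without treated mouse 1 (0.125), and that of Psme1 also without treated mouse 1 (0.144) or 3 (0.111). The Ptpn6 calls were lost with the largest bin of the gene (0.511 against WT, 0.244 on treatment).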

How the data were processed

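The members and gene lists were chosen with earlier results of these data known. RNA from the gastrocnemius and quadriceps of 9 mice was prepared by poly(A) selection with a stranded kit. For each library the authors deposited the number of read pairs on every exon bin as raw counts, and their processing notes name CASAVA, HISAT, featureCounts 1.5.0 and GRCm38. Whether the counting used strand was not given in the sources used here. A pair that overlaps several bins was counted in each.

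Bins were summed to genes, and entries naming no gene (2.82% to 4.14% of a library) were left out. Genes were filtered with filterByExpr (10 counts, 15 in total) and normalized by TMM, and each muscle was fitted with its 9 libraries by the quasi-likelihood test of edgeR 4.0.16 (R 4.3.3), with Benjamini-Hochberg adjustment and a threshold of 0.1. The difference between muscles came from a fit of 18 libraries, and bins were tested with diffSpliceDGE. SE is the size of the log2 FC over the square root of F. DESeq2 1.42.0, limma 3.58.1, other normalizations and filters, the largest bin, 2 groups in the fit, each mouse left out and a replicate block were the alternatives. The scripts were tested on simulated data.

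Mice of a group are separate animals, and same-numbered muscles of a group come from the same mouse (median correlation of deviations 0.215 over 9 pairs). Named genes were all 8 sensors, each member called in any comparison and the member of each role with the highest level per kilobase, and of the other pathway genes the 8 called with the smallest P. Other pathway genes (102 of 121 found) and cell type markers (71 of 77 found) were listed in the same way.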

Additional observations from a re-analysis of the deposited data

How the results depend on the processing

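Alternatives changed the test (DESeq2, limma voom), the normalization (RLE, upper quartile), the filter on low counts, the value of a gene (its largest bin), the groups in the fit, the mice and the replicate block. Of the counts and medians, 363 values under an alternative stayed within the limits set for them and 57 moved. Of the values for single genes and single libraries, 514 stayed so, 79 lost the call and 0 turned in direction. Where a value moved, the cause was not tested.

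For HSA-LR against WT in the gastrocnemius, 7 members in place of 4 were called with the 2 groups compared alone in the fit, and 14 other pathway genes in place of 8. The share of all genes was then 22%, in place of 15.5%. That pathway count was 5 with genes of at least 1 count in any library (8.25% of all genes) and 4 with the replicate block (11.6%). For treated against HSA-LR mice in the gastrocnemius, DESeq2 called 3 members in place of 0 and 10 pathway genes in place of 4 (14.9% of all genes). There limma voom called 1 member (10%) and a filter of at least 10 counts in every library 1 (10.9%). In the quadriceps DESeq2 called 5 members in place of 3 (14.7%, beside 20.3% of all genes). The replicate block called 0 (beside 11.8%), with Ifih1 at an adjusted P of 0.102. For treated against WT in the gastrocnemius, DESeq2 and the largest bin of a gene each called 1 member in place of 0 (3.39% and 1.13% of all genes). The pathway count there was 2 with DESeq2 in place of 1. It was 0 with 2 groups in the fit (0.368% of all genes), at least 10 counts in every library (0.938%), limma voom (0.794%) or the replicate block (0.403%). In the quadriceps DESeq2 called 1 member and 3 pathway genes in place of 0 (4.8% of all genes), and the filter of at least 1 count called 1 pathway gene (0.86%).

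With each mouse left out in turn, members called for HSA-LR against WT ranged from 1 to 8 in the gastrocnemius and from 4 to 5 in the quadriceps, and for treated against HSA-LR mice from 0 to 2 and from 0 to 5. For treated against WT they stayed at 0. Of all genes, 8.52% to 22.1% and 12.9% to 21.2% were called in these fits for HSA-LR against WT. The shares were 2.69% to 11.8% and 4.36% to 17.5% for treated against HSA-LR. For treated against WT they were 0.295% to 1.22% and 0.314% to 1.93%. The pathway counts ranged from 3 to 16 and from 7 to 12 for HSA-LR against WT, from 2 to 5 and from 3 to 20 for treated against HSA-LR, and from 0 to 1 in both muscles for treated against WT. The first of these was 3 without HSA-LR mouse 1 (8.6% of all genes then), HSA-LR mouse 2 (8.52%) or WT mouse 1 (10.5%). It was 4 without HSA-LR mouse 3 (8.83%) or WT mouse 3 (13.2%), 5 without treated mouse 2 (15.3%) and 16 without treated mouse 3 (22.1%). For treated against HSA-LR quadriceps it was 3 without HSA-LR mouse 1 (4.36% of all genes then) and 5 without treated mouse 1 (5.32%) or 2 (6.46%). It was 6 without HSA-LR mouse 2 (5.52%) and 20 without HSA-LR mouse 3 (17.5%), where the fit of all mice tested 92 pathway genes. For the gastrocnemius it was 2 without HSA-LR mouse 1 (2.69%). The member median log2 FC ranged from -0.079 to 0.15 in the gastrocnemius and from -0.20 to 0.10 in the quadriceps for HSA-LR against WT, from -0.12 to 0.19 and from -0.16 to 0.029 for treated against HSA-LR, and from -0.054 to 0.17 and from -0.19 to 0.049 for treated against WT.

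Same-numbered mice of different groups share only a number (median correlation of deviations 0.0013 over 18 pairs), so the block was an alternative only. Genes with few counts per library, such as Isg15, Ifit1 and Zbp1, have wide errors, and a difference of the size of their SE was not detectable at this depth.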

Other observations

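Chemokines that interferon gamma induces were present at a low level in all groups. Of Cxcl9, Cxcl10, Cxcl11 and Ccl5, 1 was called higher in treated than in HSA-LR quadriceps, as given above. Cxcl9 ran from 0.0251 to 1.11 CPM over the 18 libraries (3 to 126 counts) and Cxcl11 from 0.0931 to 1.65 CPM (13 to 218 counts), and Ccl5 was at 0 in 1 library and at most 0.240 CPM in the others.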
